A study of Mus musculus with 8 samples.

Results

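Collagens and stromal matrix genes were followed in RNA from sorted tumor-associated macrophages (TAMs). The set held 52 protein-coding genes: 42 collagen chains, found by their symbols (Col, a number, a, a number), and 10 named genes, Fn1, Sparc, Dcn, Lum, Postn, Bgn, Fbn1, Pdgfra, Pdgfrb and Acta2. It was drawn from 26939 genes, of which 16305 were protein-coding. Col4a3bp, a ceramide transporter whose symbol only begins like a collagen, was not a member.

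TAMs were sorted for CD45, CD11b and F4/80 and against Gr-1 among live cells, after selection on CD45 beads, from EO771 tumors on day 21. EO771 is a mammary carcinoma line of C57BL/6 mice, here grown in the mammary fat pad of female mice aged 8 to 14 weeks. The 4 groups had 2 libraries each, control and αMARCO of WT mice and control and αMARCO of Unc93b1 3d/3d mice. Unc93b1 3d/3d mice carry a mutated UNC93B1 in all their cells and lack working TLR3, TLR7 and TLR9, the endosomal receptors for nucleic acids. αMARCO, the rat antibody clone ED31 against the scavenger receptor MARCO, was injected at 100 µg on days 3, 6, 9 and 12. The labels call the control mice untreated in one field and give an isotype IgG1 in another, and the names of the control libraries read PBS, so what the controls received is not settled here. Each control sample was pooled from 3 mice. One Unc93b1 3d/3d control library has 3d/4d in its genotype field and 3d/3d in its title. As nothing ties a library to a mouse of its own, p-values measure the spread between the libraries only.

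Collagens are trimers whose chains repeat a triplet of glycine and 2 other residues, and they are made in quantity by fibroblasts, pericytes and endothelial cells. Type I, III and V chains form fibrils, type IV chains form the basement membrane, and type VI chains form beaded filaments between them. Macrophages are better known for breaking collagen down, though they do make fibronectin (Fn1) and type VI collagen. A gate on CD45 and F4/80 should leave few stromal cells, so the members bear on how much matrix RNA the sorted TAMs carried. In RNA from bulk cells, fewer cells of a type and less RNA per cell cannot be told apart.

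The libraries held 15182618 to 26411936 counts, and 3 counts, the floor used here, equal 0.114 to 0.198 CPM (counts scaled to a common library size). Unc93b1 stood at 707 to 965 CPM in the 4 WT libraries and at 539 to 660 CPM in the 4 Unc93b1 3d/3d libraries, and the groups did not overlap. Each of the 12 macrophage markers was at 1 CPM or more in every library, and their summed level ran from 11464 to 17083 CPM. With αMARCO in WT 4 of the 12 were called lower and 0 higher, and between the controls 2 were called higher and 2 lower in WT, by the test described with the comparisons below. The shares of all genes tested were 11.8% lower and 8.91% higher with αMARCO in WT. Between the controls they were 6.58% higher and 6.40% lower in WT. The 2 Unc93b1 3d/3d αMARCO libraries stood apart from each other. Of 11938 genes at 1 CPM or more throughout, 14.1% differed over 2-fold between them, against 0.436% to 1.30% between the libraries of the other groups. No pair of libraries agreed within sampling noise (chi-square per degree of freedom of 8.21 or more), so none was counted as a repeat.

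The glycine repeat is what defines the collagen members as a family, and it is shown here because it is also where reads of different chains could be confused. Each line gives 90 coding bases, 5′ to 3′ on the coding strand, from the start of the longest run of glycine triplets in the GENCODE vM21 transcript with the longest coding sequence; the glycine codons are in capitals.
Col3a1: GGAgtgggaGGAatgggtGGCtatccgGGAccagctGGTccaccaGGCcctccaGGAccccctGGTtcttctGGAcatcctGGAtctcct
Col1a1: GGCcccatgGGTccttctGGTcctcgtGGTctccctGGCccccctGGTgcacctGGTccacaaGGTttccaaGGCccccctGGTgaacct
Col4a1: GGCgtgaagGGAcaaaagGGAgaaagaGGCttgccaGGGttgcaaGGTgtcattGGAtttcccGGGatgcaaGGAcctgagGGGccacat
Col6a1: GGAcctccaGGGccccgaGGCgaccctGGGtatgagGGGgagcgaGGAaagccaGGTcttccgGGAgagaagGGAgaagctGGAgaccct
On GRCm38 the Col3a1 stretch lies in exons 5 and 6 of 51 (chr1:45323762-45325413, plus strand). The Col1a1 stretch lies in exons 6 to 8 of 51 (chr11:94939451-94939939, plus strand). That of Col4a1 lies in exons 2 and 3 of 52 (chr8:11247024-11267614, minus strand), and that of Col6a1 in exons 8 and 9 of 35 (chr10:76719623-76720996, minus strand).

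The unbroken repeat ran for 344 triplets in Col3a1 and 338 in Col1a1, but for 87 in Col6a1, 45 in Col6a3 and 40 in Col4a1. Col3a1 and Col1a1 shared 45 of the 90 bases shown. Over all 1326 pairs of member transcripts, the longest identical runs were 219 bases between Col6a5 and Col6a6, 43 between Col22a1 and Col8a1, and 32 between Col5a1 and Col5a3. All other pairs shared 28 bases or fewer, so apart from Col6a5 and Col6a6, which were near 0, the chains were distinct in sequence. Exons of 16 members overlap another gene, but only Fbn1 shares over 10% of its exonic bases, 20.1% with Gm9913 on the other strand. Whether reads were counted by strand is not given in the sources used here, so the Fbn1 level is uncertain to that extent.

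Col4a1 (chr8:11198423-11312826, minus strand) and Col4a2 (chr8:11312805-11449287, plus strand) are read outward from a shared start region and overlap by 22 bases. Upstream sequences of Col3a1, Col6a3 and Col5a1, all 3 of which were called lower in the WT than in the Unc93b1 3d/3d controls (below), are given for comparison. Each holds the 250 bases before the RefSeq start, 5′ to 3′ on the gene's strand (GRCm38.p6), with matches to the TATA box (TATAAA), the CCAAT box or the GC box (GGGCGG) on either strand in capitals.
Col3a1: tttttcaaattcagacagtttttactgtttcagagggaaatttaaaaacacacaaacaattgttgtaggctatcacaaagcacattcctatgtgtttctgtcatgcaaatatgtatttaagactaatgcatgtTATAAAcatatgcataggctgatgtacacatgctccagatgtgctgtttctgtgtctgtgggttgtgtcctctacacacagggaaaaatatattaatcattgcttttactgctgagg
Col6a3: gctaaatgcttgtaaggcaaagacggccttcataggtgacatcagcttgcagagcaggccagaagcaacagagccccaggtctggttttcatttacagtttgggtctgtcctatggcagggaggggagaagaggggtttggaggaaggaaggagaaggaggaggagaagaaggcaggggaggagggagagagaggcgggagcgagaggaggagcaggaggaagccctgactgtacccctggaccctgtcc
Col5a1: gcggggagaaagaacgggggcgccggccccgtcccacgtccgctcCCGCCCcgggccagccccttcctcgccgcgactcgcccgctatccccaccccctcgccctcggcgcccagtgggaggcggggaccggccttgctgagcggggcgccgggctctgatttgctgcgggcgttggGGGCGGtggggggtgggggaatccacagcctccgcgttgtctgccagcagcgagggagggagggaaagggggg
They lie at chr1:45311288-45311537 (plus strand), chr1:90843972-90844221 (minus strand) and chr2:27886175-27886424 (plus strand), and no annotated exon overlaps them. Their base composition differed, with 35.2%, 57.2% and 76.4% G and C. The letters TATAAA were found once upstream of Col3a1, GGGCGG once on each strand upstream of Col5a1, and none of the motifs upstream of Col6a3. Matches were sought anywhere in the 250 bases, so a match need not be a working promoter element. Among the 39 members with a RefSeq promoter, 6 held TATAAA, 12 CCAAT and 21 GGGCGG. Of all 32851 promoters of that length, 12.4%, 33.9% and 32.7% held these motifs. The members were counted by gene and the shares by promoter. A gene with several promoters has more chances of a match, so the member counts cannot be compared directly with the shares.

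The 52 genes together took a small part of each library. They held 0.0755% and 0.0573% of the counts in the WT control libraries, 0.119% and 0.111% in the Unc93b1 3d/3d control libraries, 0.0513% and 0.0513% in the WT αMARCO libraries, and 0.100% and 0.0341% in the Unc93b1 3d/3d αMARCO libraries. Fn1 alone made up from 0.00689% to 0.0360% of a library. Without Fn1 the remaining 51 genes took 0.0550% and 0.0486% in the WT controls, 0.0914% and 0.0750% in the Unc93b1 3d/3d controls, 0.0213% and 0.0155% in the WT αMARCO libraries, and 0.0846% and 0.0272% in the Unc93b1 3d/3d αMARCO libraries. The order without Fn1 was thus Unc93b1 3d/3d control above WT control above WT αMARCO, with no overlap, while the last group spread from near the first to near the third.

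**Figure D1:**
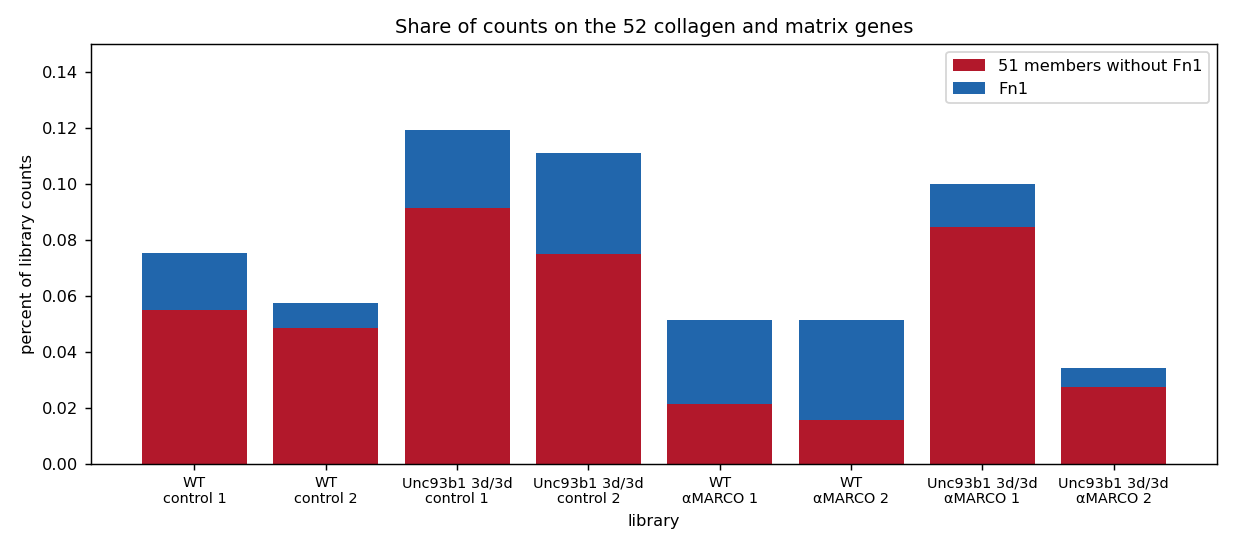
Stacked bars give the percent of each library's counts on the 52 collagen and matrix genes, split into Fn1 (blue) and the other 51 (red), for each of the 8 libraries. The red part runs from 0.0155% in WT αMARCO 2 to 0.0914% in Unc93b1 3d/3d control 1.

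A subset of 15 genes that fibroblasts are known for (Col1a1, Col1a2, Col3a1, Col5a1, Col5a2, Col6a1, Col6a2, Col6a3, Dcn, Lum, Postn, Bgn, Fbn1, Pdgfra and Pdgfrb) made up 0.0333% ± 0.0034 (SD, n = 2) of WT control counts and 0.0580% ± 0.0070 of Unc93b1 3d/3d control counts. It made up 0.0108% ± 0.0034 of WT αMARCO counts and 0.0389% ± 0.0303 of Unc93b1 3d/3d αMARCO counts. Col6a3 was its largest single part.

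Of the 52 members, 22 were at 1 CPM or more in every library and 19 were under 1 CPM in every library. By counts, 25 were over the floor of 3 counts in every library, 18 in some and 9 in none. The members over the floor throughout were 6 of the 10 fibrillar collagens, 5 of 8 basement membrane collagens, 3 of 11 beaded filament and network collagens, 3 of 9 fibril-associated collagens, 0 of 4 transmembrane collagens, 5 of the 7 matrix glycoproteins and proteoglycans, and all 3 of the receptor and contractile genes.

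Per kilobase of gene length, Fn1 was the member of highest mean level over the 8 libraries at 19.2 CPM per kb, a level exceeded by 20.8% of 12741 protein-coding genes that passed the filter on low counts. It was followed by Col6a1 at 14.3, Col6a3 at 8.90, Col3a1 at 6.85, Sparc at 5.86, Col4a1 at 5.25, Lum at 3.95 and Col6a2 at 3.49 CPM per kb. By group, Fn1 was above Col6a1 in the Unc93b1 3d/3d controls (26.1 against 21.9 CPM per kb) and the WT αMARCO libraries (28.3 against 4.43), and Col6a1 was above Fn1 in the WT controls (15.03 against 12.5) and the Unc93b1 3d/3d αMARCO libraries (16.01 against 9.72). The type I collagen chains, the main collagens of most fibroblasts, were far down the list, with Col1a1 at 0.217 and Col1a2 at 0.0904 CPM per kb. For Col1a1, 93.4% of those protein-coding genes had a higher level per kilobase, and for Col3a1 45.2%.

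**Figure D2:**
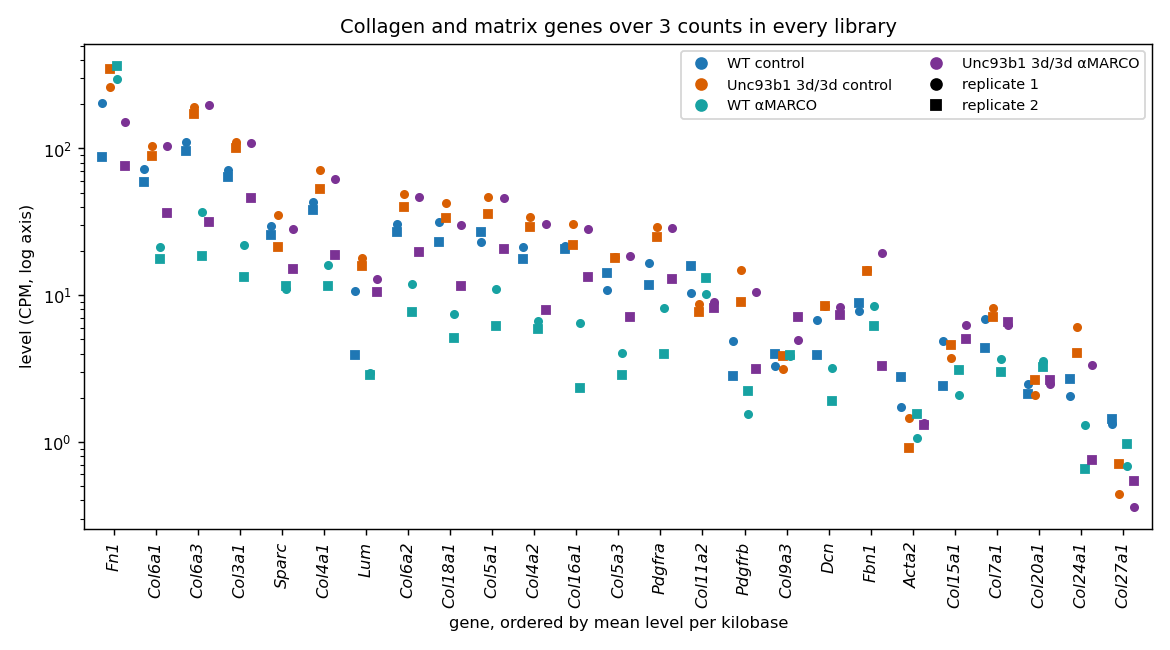
Each point is the level of a gene in one library in CPM (log axis) for the 25 members over 3 counts in every library, ordered by mean level per kilobase; color gives the group and shape the replicate. From Col6a1 to Col5a3, the WT αMARCO points lie below both control groups for each gene.

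Type VI collagen, the beaded filament collagen, had the chain of highest level per kilobase among the collagens, Col6a1. Col6a1 (ENSMUSG00000001119, chr10:76708792-76726168) stood at 72.4 and 59.2 CPM in the WT controls, 104 and 88.2 in the Unc93b1 3d/3d controls, 21.3 and 17.5 in the WT αMARCO libraries, and 104 and 36.6 in the Unc93b1 3d/3d αMARCO libraries. Col6a2 stood at 30.6 and 27.0, 49.2 and 40.0, 11.8 and 7.64, and 46.8 and 19.6 CPM in the same order. Col6a3 (ENSMUSG00000048126, chr1:90765923-90843971) stood at 110 and 95.8, 191 and 172, 36.8 and 18.5, and 197 and 31.3 CPM. For all 3 chains the Unc93b1 3d/3d control libraries were above the WT control libraries and these above the WT αMARCO libraries, while Unc93b1 3d/3d αMARCO 1 was near the controls of its genotype and Unc93b1 3d/3d αMARCO 2 was below both. The chains Col6a4, Col6a5 and Col6a6 had between 3 and 5 counts over all libraries.

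The fibrillar collagens were split. Col3a1 (ENSMUSG00000026043, chr1:45311538-45349706), the type III chain, stood at 71.0 and 63.9 CPM in the WT controls, 111 and 101 in the Unc93b1 3d/3d controls, 21.8 and 13.3 in the WT αMARCO libraries, and 109 and 46.2 in the Unc93b1 3d/3d αMARCO libraries. Col5a1 (chr2:27886425-28039514), a type V chain that takes part in starting fibrils, stood at 23.0 and 26.9, 47.0 and 35.8, 11.0 and 6.17, and 46.3 and 20.5 CPM. Both followed the order of the type VI chains. The type I chains did not: Col1a1 (ENSMUSG00000001506, chr11:94936224-94953042) stood at 1.21 and 0.776, 5.46 and 0.457, 1.12 and 0.810, and 1.35 and 0.204 CPM. Its Unc93b1 3d/3d controls alone spanned 0.457 to 5.46 CPM, and the groups overlapped. Col1a2 ranged from 0.152 to 3.33 CPM and Col5a2, the partner of Col5a1 in most type V collagen, from 0.0507 to 1.44 CPM, and for both chains the highest and the lowest library were the Unc93b1 3d/3d controls. Col11a2, a chain better known from cartilage, stood at 10.4 and 15.7 CPM in the WT controls and 8.73 and 7.71 in the Unc93b1 3d/3d controls.

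Among basement membrane collagens, Col4a1 stood at 42.9 and 38.4 CPM in the WT controls, 71.0 and 52.8 in the Unc93b1 3d/3d controls, 16.1 and 11.6 in the WT αMARCO libraries, and 62.1 and 18.8 in the Unc93b1 3d/3d αMARCO libraries. Col4a2 followed at 21.3 and 17.7, 34.3 and 29.4, 6.70 and 5.86, and 30.8 and 7.96 CPM. Col18a1, the source of the fragment endostatin, stood at 31.5 and 23.1, 42.2 and 33.8, 7.47 and 5.13, and 30.2 and 11.6 CPM. Their WT αMARCO libraries were the lowest of all 8. Col15a1 (2.09 to 6.23 CPM) and Col7a1, of anchoring fibrils (2.97 to 8.22 CPM), ranged less. Col4a3, Col4a4 and Col4a5 were at or under 0.314 CPM in every library.

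Of the 10 non-collagen members, Fn1 (ENSMUSG00000026193, chr1:71585520-71653200) had its own pattern. It stood at 205 and 88.1 CPM in the WT controls, 264 and 347 in the Unc93b1 3d/3d controls, 297 and 365 in the WT αMARCO libraries, and 151 and 76.0 in the Unc93b1 3d/3d αMARCO libraries. Both αMARCO libraries were thus above the controls in WT and below them in Unc93b1 3d/3d. Sparc, a collagen-binding glycoprotein, stood at 29.5 and 25.7, 35.3 and 21.3, 11.0 and 11.6, and 28.3 and 15.03 CPM.

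Lum, a small proteoglycan on collagen fibrils, stood at 10.6 and 3.88, 17.9 and 15.8, 2.96 and 2.85, and 12.9 and 10.5 CPM. Pdgfra, the receptor that marks many fibroblasts, stood at 16.5 and 11.6, 28.9 and 24.8, 8.20 and 3.97, and 28.7 and 12.9 CPM. Both genes were lowest in WT αMARCO. Dcn (1.89 to 8.41 CPM), Pdgfrb (1.55 to 14.9 CPM) and Fbn1, the microfibril protein fibrillin (3.26 to 19.3 CPM), were the other 3 genes of this kind at 1 CPM or more in every library, and Postn (0.0507 to 3.71 CPM), Bgn (0.204 to 1.97 CPM) and Acta2, smooth muscle actin (0.913 to 2.77 CPM), were at 3.71 CPM or less throughout.

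The first comparison asked how the genotypes differ without αMARCO. In the WT controls the chains Col6a1, Col6a2, Col6a3, Col3a1, Col4a1, Col4a2 and Col5a1 were lower than in the Unc93b1 3d/3d controls. The other type V chains were not called, as Col5a3 was at -0.54 (edgeR adjusted p = 0.0592) and the groups overlapped for Col5a2. Of the 52 members, 32 passed the filter on low counts and 12 were called (edgeR quasi-likelihood test with Benjamini-Hochberg adjustment, thresholds of 0.05 for the adjusted p and 0.5 for the log2 fold change in either direction). All 12 were lower in WT, where 6.40% of the 15600 genes tested were called lower. The median log2 fold change, WT over Unc93b1 3d/3d, was -0.59 over the members tested and -0.0036 over all genes tested. Every WT library was below every Unc93b1 3d/3d library for 19 of the 32, against 29.9% of all genes tested. Every WT library was above every Unc93b1 3d/3d library for 3, Col11a2, Col27a1 and Acta2, against 5178 of all 15600 genes tested.

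The called collagens were all 3 type VI chains of the set at 1 CPM or more, the type IV pair, and Col3a1, Col5a1, Col24a1 and Col10a1. Col6a3 had a log2 fold change of -0.83 ± 0.11 (SE; edgeR adjusted p = 0.00134), Col3a1 of -0.67 ± 0.10 (edgeR adjusted p = 0.00290) and Col6a1 of -0.56 ± 0.13 (edgeR adjusted p = 0.0162). Col4a2 stood at -0.72, Col4a1 at -0.62, Col6a2 at -0.64, Col5a1 at -0.74 and Col24a1, a fibrillar chain of low level, at -1.10 on the log2 scale. Col10a1, a network collagen of cartilage, had 2 counts in the WT controls and 27 in the Unc93b1 3d/3d controls, a ratio of CPM of 14.7 (exact 95% interval for counting error only, 3.70 to 128). It passed the filter only through the Unc93b1 3d/3d controls. The called genes outside the collagens were Pdgfrb (-1.65 ± 0.34, edgeR adjusted p = 0.0126), Pdgfra (-0.95 ± 0.18, edgeR adjusted p = 0.00857) and Fbn1 (-0.85 ± 0.18, edgeR adjusted p = 0.0125).

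Not called were Fn1 (-1.08 ± 0.53, edgeR adjusted p = 0.296), Lum (-1.22 ± 0.45, edgeR adjusted p = 0.132), Dcn (-0.67) and Col18a1 (-0.49), although each WT control library was below each Unc93b1 3d/3d control library for these 4 genes. DESeq2 called 11 members, all lower, beside 1810 of 15600 genes (11.6%). Lum was among the 11, and Col10a1 and Col24a1 were not. Lum was also called lower with no filter on low counts and with a replicate block. The block called Col5a3 and Col18a1 lower as well. Sparc was at -0.05 ± 0.23. A fit with 1 library of a group left out takes its spread from the other group alone. For Fn1 such fits gave -1.80 without WT control 1 and -0.58 without WT control 2. Col11a2 was at 0.65 ± 0.24, above 0 (edgeR adjusted p = 0.0839), and was called higher in WT with a replicate block (edgeR adjusted p = 0.0498), with no filter on low counts and without WT control 1. A single model over all 8 libraries, which shares 1 estimate of the spread, called 0 of 36 members, beside 364 of 16620 genes (2.19%). In it 2607 genes had an unadjusted p of at most 0.05. When Unc93b1 3d/3d αMARCO 2 was left out of that model, 9 members were called beside 2450 of 17724 genes (13.8%), 8 of them lower and among the 12, and 1, Col11a2, higher. Leaving out 1 of the 4 libraries kept 6 to 11 of the 12 calls. Without Unc93b1 3d/3d control 1 the 6 kept were Col3a1, Col4a2, Col5a1, Col6a3, Fbn1 and Pdgfra, and these kept their call whichever library was left out. Col6a1 also lost its call without WT control 2.

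The next comparison asked what αMARCO changed in WT mice. The chains Col3a1, Col4a1, Col4a2, Col5a1, Col5a3, Col6a1, Col6a2, Col16a1, Col18a1 and Col24a1 were lower with the antibody, with log2 fold changes from -2.28 to -1.27, and Sparc, Dcn, Pdgfra and Postn were lower as well. Of the 52 members, 29 were tested and 14 called, all lower with αMARCO, where 11.8% of 15630 genes tested were called lower. The median log2 fold change, αMARCO over control, was -1.21 over the members tested and -0.012 over all genes tested. Each αMARCO library was below each control library for 20 of the 29 members and for 36.8% of all genes tested.

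Col6a1 had a log2 fold change of -1.76 ± 0.13 (SE; edgeR adjusted p = 7.23e-05), Col6a2 of -1.57 ± 0.20, and Col18a1 of -2.12 ± 0.22 (edgeR adjusted p = 0.000383). The type IV chains were at -1.55 ± 0.15 for Col4a1 and -1.63 ± 0.17 for Col4a2. Of the fibrillar collagens, Col3a1 was at -1.94 ± 0.23 (edgeR adjusted p = 0.00294), Col5a3 at -1.87 ± 0.24, Col5a1 at -1.54 ± 0.26 and Col24a1 at -1.27 ± 0.44 (edgeR adjusted p = 0.0489). Col16a1, a fibril-associated chain, was at -2.28 ± 0.48. The called members outside the collagens were Sparc (-1.28 ± 0.13, edgeR adjusted p = 0.000183), Pdgfra (-1.21 ± 0.36, edgeR adjusted p = 0.0417), Dcn (-1.07 ± 0.35, edgeR adjusted p = 0.0431) and Postn (-2.80 ± 0.72, edgeR adjusted p = 0.0161). Postn, a matricellular protein, rested on 17 and 67 counts in the controls against 7 and 8 with αMARCO. It passed the filter only through the controls and was not tested where 10 counts were required in every library.

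Col6a3 (-1.90 ± 0.42, edgeR adjusted p = 0.0613), Lum (-1.31 ± 0.46, edgeR adjusted p = 0.0686) and Pdgfrb (-0.999 ± 0.357, edgeR adjusted p = 0.0533) had differences of like size and did not pass the threshold. DESeq2 called 14 members, all lower, beside 2671 of 15630 genes (17.1%). Col6a3 and Lum were among these 14, and Col24a1 and Dcn were not. A replicate block also called Col6a3 and Lum lower. Pdgfrb was called lower with no filter on low counts and where 10 counts were required in every library. Fn1 went the other way in the fitted values, at 1.18 ± 0.56 (edgeR adjusted p = 0.249), and was not called. It was at 1.91 without WT control 1 and at 0.69 without WT control 2, and these fits called it higher. Without WT control 2, Bgn and Col12a1 were called higher as well, on 5 and 0 counts in WT control 1. The spread of such fits comes from the αMARCO libraries alone, so they cannot show how the controls vary. Fbn1 was at -0.19 ± 0.21, and the type I chains were at -0.05 (Col1a1) and 0.43 (Col1a2). Again the single model over all 8 libraries called 0 of 36 members, beside 164 of 16620 genes (0.987%). In it 3318 genes had an unadjusted p of at most 0.05. The same model without Unc93b1 3d/3d αMARCO 2 called 16 members, all lower and 13 of them among the 14, beside 3237 of 17724 genes (18.3%). Leaving out 1 of the 4 libraries kept 9 to 12 of the 14 calls, and Col3a1, Col16a1 and Pdgfra lost theirs when either WT control library was left out. Sparc, Col4a1, Col4a2, Col5a1, Col5a3, Col6a1, Col6a2 and Col18a1 kept theirs whichever was left out. Both comparisons use the WT control libraries, so their values are given side by side and their overlap is not a result.

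**Figure D3:**
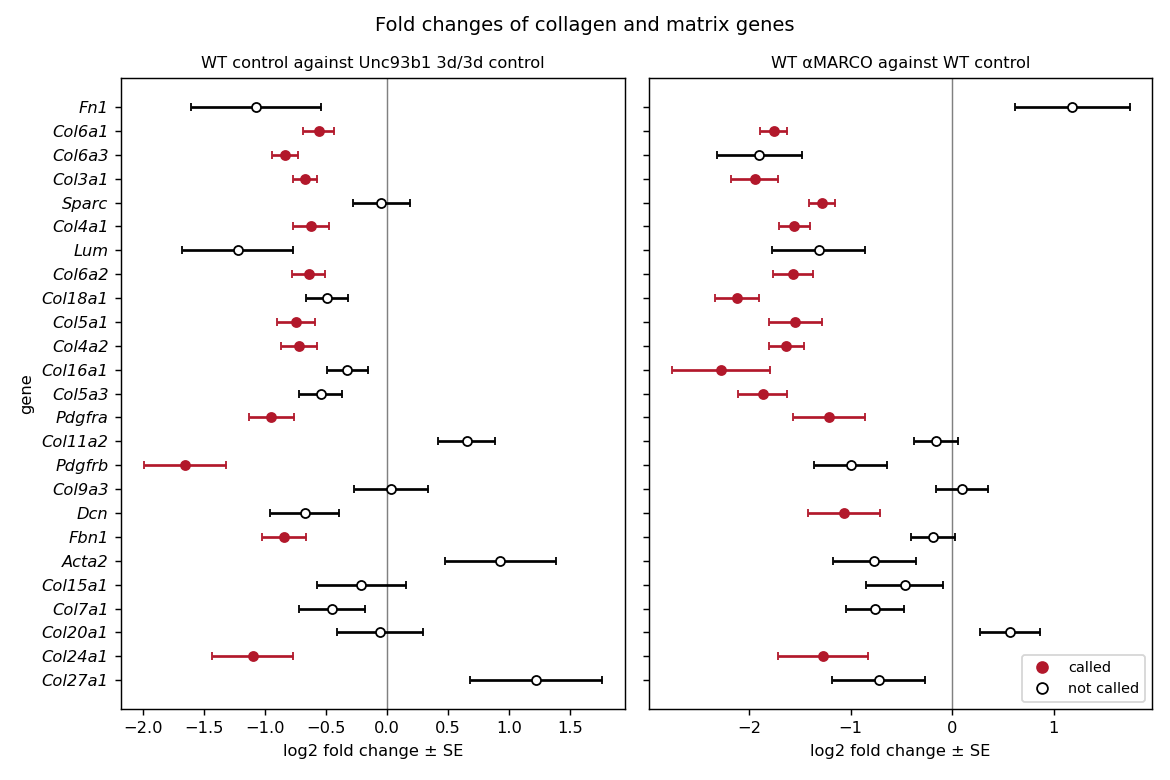
Log2 fold changes with their standard errors from the edgeR fits of WT control against Unc93b1 3d/3d control (left) and WT αMARCO against WT control (right), for 25 members ordered by level per kilobase, with 2 libraries a group; filled red points passed both thresholds. Filled points lie left of 0 in both panels, and Fn1 lies at -1.08 on the left and 1.18 on the right.

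In Unc93b1 3d/3d mice, αMARCO against control gave no call. Of 15428 genes tested 0 were called (0%), among them 29 members, with 744 genes at an unadjusted p of at most 0.05, and DESeq2 called 60 genes and 1 member, Fn1. The median log2 fold change of the members tested was -0.42, against 0.029 over all genes tested. For 7 of the 29 members each αMARCO library was below each control library, against 19.2% of all genes tested. Fn1 was at -1.43 ± 0.37 (edgeR adjusted p = 0.823), Col6a3 at -0.67 ± 0.74, Col3a1 at -0.45 ± 0.40, Col6a1 at -0.45 ± 0.46, Pdgfra at -0.36 ± 0.39 and Col4a1 at -0.61 ± 0.53.

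Between the αMARCO libraries of this genotype 13 of 22 members at 1 CPM or more throughout differed over 2-fold, against 0 to 3 between the libraries of the other groups. Col6a3 stood at 197 and 31.3 CPM in this pair. With Unc93b1 3d/3d αMARCO 1 left out, 19 members were called, 18 of them lower with αMARCO, beside 5500 of 16110 genes (34.1%), 2774 of them lower, and the log2 fold change of Col3a1 was -1.19. With Unc93b1 3d/3d αMARCO 2 left out, Fn1 was the 1 member called, lower with αMARCO, beside 571 of 16754 genes (3.41%), and Col3a1 stood at 0.046. The lone library is then assumed to vary like the others, and which of the 2 libraries is closer to the group was not tested.

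WT αMARCO against Unc93b1 3d/3d αMARCO likewise gave 0 calls (0%) among 15722 genes and 28 members, with 1076 genes at an unadjusted p of at most 0.05, and 214 genes and 8 members called by DESeq2. The median log2 fold change of the members tested, WT over Unc93b1 3d/3d, was -1.33, against -0.031 over all genes tested. Every WT library was below every Unc93b1 3d/3d library for 17 of the 28 members and for 22.2% of all genes tested. Lum was at -2.01 ± 0.28 (edgeR adjusted p = 0.230), Dcn at -1.61 ± 0.38, Col3a1 at -2.15 ± 0.50 (edgeR adjusted p = 0.507), Col5a1 at -1.96 ± 0.51, Col6a1 at -1.85 ± 0.52 and Pdgfra at -1.78 ± 0.54. Fn1 was at 1.55 ± 0.38 (edgeR adjusted p = 0.534). Left out in turn, Unc93b1 3d/3d αMARCO 1 gave 16 called members, 6 higher and 10 lower in WT, beside 6366 of 16500 genes (38.6%). Unc93b1 3d/3d αMARCO 2 gave 15, 1 higher and 14 lower, beside 1252 of 16795 genes (7.45%). With a replicate block 7 members were called, all lower, beside 97 genes (0.617%).

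Whether αMARCO acted differently in the genotypes was tested by the difference of its effects over all 8 libraries. None of 16620 genes was called (0%), 36 members included, and 15.3% had an unadjusted p of at most 0.05, while DESeq2 called 211 genes and 1 member, Fn1. The difference, WT minus Unc93b1 3d/3d, was 2.60 ± 0.61 on the log2 scale for Fn1 (edgeR adjusted p = 0.310). It was -1.50 ± 0.53 for Col3a1 (edgeR adjusted p = 0.318), -1.31 ± 0.57 for Col6a1 and -1.23 ± 0.95 for Col6a3. Without Unc93b1 3d/3d αMARCO 2, 7 members were called, all with a negative difference, beside 612 of 17724 genes (3.45%). Without Unc93b1 3d/3d αMARCO 1, 3 members were called, all with a positive difference, beside 6440 of 17701 genes (36.4%).

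**Figure D4:**
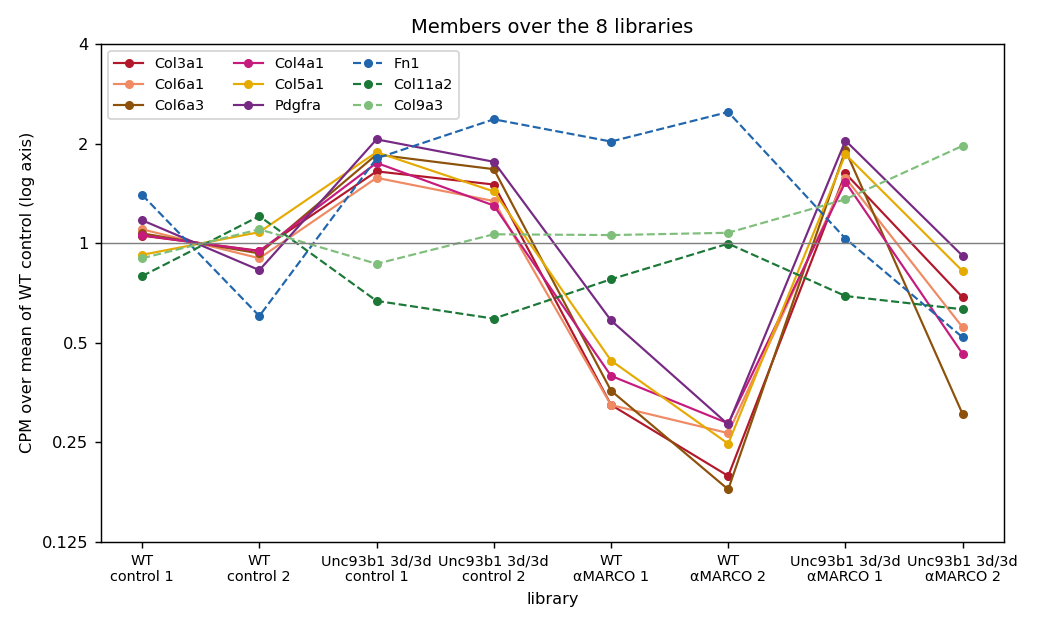
Level of 9 members in each of the 8 libraries, divided by the mean of the WT control libraries (log axis); solid lines are collagens and Pdgfra, dashed lines are Fn1, Col11a2 and Col9a3. The solid lines drop in both WT αMARCO libraries and in Unc93b1 3d/3d αMARCO 2, and Fn1 is high in the WT αMARCO libraries.

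Ratios within a library do not depend on scaling between libraries, and the pairs below were chosen after their values were seen. Per kilobase, Col6a1 was 3.42 to 4.49 times Col6a2 and Col4a1 was 1.59 to 2.13 times Col4a2 over the 8 libraries, while the chains themselves ranged over 5-fold. Col3a1 was 0.339 to 0.563 times Col6a1 and 1.71 to 2.67 times Col5a1. These 4 ratios moved by at most 1.66-fold from the lowest to the highest library, and Col3a1 over Col4a1 moved by 2.14-fold, from 0.874 to 1.87. Col3a1 over Col6a3 was 0.679 to 0.876 in 7 libraries and 1.80 in Unc93b1 3d/3d αMARCO 2. By contrast, Col3a1 over Col1a1 ran from 11.0 to 151, Col5a1 over Col5a2 from 20.1 to 796, and Col3a1 over Fn1 from 0.0434 to 0.862.

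Of 28 genes of collagen biosynthesis and cross-linking, 21 were tested in either comparison of the WT controls, and against the Unc93b1 3d/3d controls 1 was called, P3h3, a prolyl hydroxylase, at -0.84 (edgeR adjusted p = 0.00473), where 6.40% of all genes tested were called lower. With αMARCO in WT, 9 of 21 were called, all lower, where 11.8% of all genes tested were. They include Serpinh1, the collagen chaperone, at -1.44 (edgeR adjusted p = 0.00193), Plod2, a lysyl hydroxylase, at -1.80, Bmp1, a procollagen protease, at -1.39, and Adamts14, another, at -1.28. The list's median was -0.083 in the first and -0.61 in the second comparison.

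Of 12 genes for collagen receptors and uptake, Mrc1, the mannose receptor, which also takes up collagen, was at 883 to 2544 CPM in the libraries and at a mean of 223 CPM per kb, above every member per kilobase. In the WT controls against the Unc93b1 3d/3d controls 1 of 10 tested was called higher, Ddr1 (1.31), and 2 lower, Mrc1 (-1.07, edgeR adjusted p = 0.0130) and Ddr2, a fibrillar collagen receptor (-1.01, edgeR adjusted p = 0.00195). With αMARCO in WT 1 of 11 was called higher, Itga1 (0.81), and 3 lower, Mrc2 (-3.21), Ddr1 (-1.97) and Itgb1 (-0.58). Mrc2 had 19 and 35 counts in the WT controls and 5 and 2 with αMARCO, and passed the filter only through the controls. Over all genes tested, 6.58% were called higher and 6.40% lower in WT between the controls. With αMARCO in WT these shares were 8.91% and 11.8%.

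Markers of other cells were measured beside the members. Of 20 fibroblast markers outside the set, 9 were at 1 CPM or more in every library and Cthrc1, Mfap4 and Pdpn were at or under 3 counts in each. The list's summed level was 129 to 145 CPM in the WT controls, 118 to 139 in the Unc93b1 3d/3d controls, 72.9 to 79.8 in WT αMARCO and 111 to 142 in the Unc93b1 3d/3d αMARCO libraries. Its genes of highest level per kilobase were Serpinf1 (7.37 to 33.0 CPM), Efemp2 (16.2 to 25.0 CPM) and Twist1 (7.06 to 19.4 CPM). In the WT controls against the Unc93b1 3d/3d controls 2 of 11 tested were called higher, Thy1 (3.17) and Ccdc80 (2.43), and 1 lower, Prrx1 (-0.54). With αMARCO in WT 5 of 11 were called lower, among them Thy1 (-3.28), Ccdc80 (-1.81), Serpinf1 (-1.52) and Fbln2 (-1.38), and 1 higher, Fap. Fap stood at 2.26 and 1.22 CPM in the WT controls and 4.56 and 3.97 with αMARCO. Between the controls 6.58% of all genes tested were called higher and 6.40% lower in WT. With αMARCO in WT these shares were 8.91% and 11.8%. Thy1 is also made by mouse T cells.

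Pericyte and smooth muscle markers summed to 4.01 to 11.8 CPM over 12 genes. Of these, 1 of 5 tested was called higher in WT between the controls, and 2 of 6 lower with αMARCO in WT. Adipocyte markers summed to at most 1.13 CPM. Endothelial markers summed to 64.5 to 101 CPM, of which Kdr alone had 56.4 to 82.6 CPM, and Sox17 was at or under 3 counts in every library. Of the endothelial markers, 0 of 6 tested were called between the controls, and 1 of 7 was called lower with αMARCO in WT. Epithelial and tumor cell markers summed to 32.2 to 106 CPM, nearly all from Krt8 (22.4 to 42.3 CPM) and Cdh1 (7.33 to 61.6 CPM). They summed to 54.0 to 106 CPM in the WT controls, 49.5 to 59.6 in the Unc93b1 3d/3d controls, 32.2 to 34.1 in WT αMARCO and 69.9 to 71.5 in the Unc93b1 3d/3d αMARCO libraries, and 2 of 4 tested were called lower with αMARCO in WT and 0 of 4 between the controls. T cell markers moved with the groups, summing to 122 to 141 CPM in the WT controls, 71.7 to 80.0 in the Unc93b1 3d/3d controls, 14.7 to 24.8 in WT αMARCO and 12.6 to 17.1 in the Unc93b1 3d/3d αMARCO libraries. In the WT controls against the Unc93b1 3d/3d controls 9 of 10 were called higher and 1, Cd4, lower, where 12 members were lower. Cd4 stood at 18.6 and 22.1 CPM in the WT controls and 61.6 and 62.2 in the Unc93b1 3d/3d controls, most of the sum in the latter. With αMARCO in WT all 10 were called lower. Of all genes tested, 6.58% were called higher and 6.40% lower in WT between the controls, and 11.8% lower with αMARCO in WT. Neutrophil markers summed to 3.78 to 45.3 CPM and were also highest in WT control. Between the controls 1 of 6 tested was called higher in WT, and with αMARCO in WT 3 of 4 tested were called lower. Some markers tested there passed the filter only through the WT controls. Examples are Epcam (27 and 15 counts in the WT controls, 3 and 0 with αMARCO) and Ltf (83 and 97 against 6 and 7). The part of these cells in the differences of the members was not tested.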

How the data were processed

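RNA of sorted TAMs was sequenced from poly(A) libraries, 2 per group. Per the labels and the study's methods, the authors trimmed reads with fastp, aligned them to GRCm38 with HISAT2 2.0.5 and made the deposited raw counts per gene with featureCounts 1.5.0; fold changes and p-values of the authors' own comparisons, also deposited, were not used. The gene counts of 3 tables were joined by gene identifier, and the 95230 counts present in more than 1 table were identical. Genes at 1 count or less were absent from some tables and were set to 0, so a low count may be off by 1. Depth was 15182618 to 26411936 counts, and intervals and floors (3 counts) cover counting error only.

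Each pair of groups was fitted on its 4 libraries with edgeR 4.0.16 in R 4.3.3 (TMM scaling, filterByExpr, robust quasi-likelihood test, Benjamini-Hochberg adjustment over all genes tested), and the difference of effects on all 8. Levels are TMM-scaled CPM over the 8 libraries, and fold changes give the first-named group over the second. DESeq2 1.42.0, other scalings and filters, a replicate block and leaving out each library were alternatives. The fits were also run on simulated counts in which all libraries had the same spread. Such a run cannot show how the fits behave where the libraries of a group stand apart.

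Members named were the 10 single genes, 10 chains of collagen types I, III, IV, V and VI, every other member called, and the 5 further members of highest level per kilobase. Of other lists, called genes whose groups did not overlap were named, at most 4 a list and comparison, with markers of highest level. Fap, Cd4, Epcam and Ltf were named besides, for their direction or their counts. Members and lists were chosen with earlier results of these data known. Sequences came from GENCODE vM21 and RefSeq (GRCm38.p6).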

Additional observations from a re-analysis of the deposited data

Results flagged for a closer look

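Fn1 had αMARCO effects of opposite direction in the genotypes: both WT αMARCO libraries (297 and 365 CPM) were above both WT control libraries (205 and 88.1 CPM), and both Unc93b1 3d/3d αMARCO libraries (151 and 76.0 CPM) were below their controls (264 and 347 CPM). The difference of the effects was 2.60 on the log2 scale (edgeR quasi-likelihood test, unadjusted p = 0.00246, adjusted p = 0.310). It did not pass the threshold over all genes. With each library left out in turn it ran from 2.11 to 3.33.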

How the results depend on the processing

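With WT control against Unc93b1 3d/3d control, a single model of all 8 libraries called 364 genes and 0 members, and leaving out 1 library gave 6 to 16 members. For WT αMARCO against WT control, the single model called 164 genes and 0 members, no fold threshold gave 5487 genes, and leaving out 1 library gave 1940 to 3951 genes. For αMARCO in Unc93b1 3d/3d, DESeq2 called 60 genes and 1 member, no filter 174 and 1, the single model 1 gene, and leaving out 1 library 1 to 5500 genes and 0 to 19 members. For WT αMARCO against Unc93b1 3d/3d αMARCO, DESeq2 called 214 genes and 8 members, no filter 107 and 1, the single model 108 genes, and leaving out 1 library 17 to 6366 genes and 0 to 16 members. For the difference of effects, DESeq2 called 211 genes and 1 member, no filter 152 genes, and leaving out 1 library 0 to 6440 genes and 0 to 7 members. The single model without Unc93b1 3d/3d αMARCO 2, added after seeing the data, called 376 genes and 0 members for αMARCO in Unc93b1 3d/3d and 687 and 14 for WT αMARCO against Unc93b1 3d/3d αMARCO. Without Col6a3 the 15 fibroblast genes made up 0.0230% of WT control and 0.0390% of Unc93b1 3d/3d control counts.

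With the replicate block, the comparisons in the order above called 2395 genes and 16 members, 3086 and 15, 5 and 0, 97 and 7, and 0 and 0. Over 16620 genes, deviations of same-numbered libraries correlated at -0.0929 to 0.161 between groups. Among the 22 members at 1 CPM or more throughout, library 1 was above library 2 for 17 in the WT controls and 18 in the Unc93b1 3d/3d controls. With αMARCO it was above for 16 in WT and 19 in Unc93b1 3d/3d. A correlation over all genes cannot show whether the members share a replicate effect, so whether the numbers pair the samples is not settled.

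Over the leave-out settings some log2 fold changes crossed 0. Sparc ran from -0.38 to 0.36 between the controls, and Fbn1 from -0.42 to 0.022 for αMARCO in WT. For αMARCO in Unc93b1 3d/3d, Col6a3 ran from -2.52 to 0.12, Col3a1 from -1.19 to 0.046, Col6a1 from -1.38 to 0.11, Pdgfra from -1.05 to 0.099 and Col4a1 from -1.71 to 0.0081, the positive values being those without Unc93b1 3d/3d αMARCO 2. Without it, in the model of the other 7 libraries, they were 0.11, 0.040, 0.11, 0.093 and 0.0027. For the difference of effects, Col6a3 ran from -2.03 to 0.63. The causes were not tested. Of 916 values of 76 single genes under the alternatives, 743 kept direction and side of the threshold, 86 lost the call, 73 gained it and 14 reversed. Members under 3 counts in a library cannot be compared at this depth.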
